A study of Mus musculus with 8 samples.

Results

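Glycolysis was examined through 10 genes: 9 enzymes of the pathway or its regulation, namely Hk1, Hk2, Pfkl, Pfkp, Pfkfb3, Aldoa, Pgk1, Pgam1 and Ldha, and Pdk1, a kinase that acts on the fate of pyruvate. The genes were taken by name from a table of 39056 genes, and all 10 were found. CD4+ T cells of 2 clones, named ANT and SAS, were compared, with 4 libraries each (replicates 1, 3, 4 and 5 of ANT, and 1, 2, 3 and 6 of SAS). Both carry the same labelled genotype, CD4-Cre with a TCR beta transgene (TCRβtg) and no endogenous TCR alpha gene (Tcra-/-). They arose in C57BL/6J mice that were given bone marrow cells after retroviral transfer of 1 TCR alpha chain, so that the labels separate the clones by that chain, ANT or SAS. The cells were sorted by flow cytometry from spleen and lymph nodes, which were pooled. The labels used here name neither an age nor the mice behind each library. Each clone stands for 1 receptor, and p-values measure only the spread between these libraries, which may be technical.

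Glycolysis splits glucose into pyruvate in the cytosol. Hexokinases trap glucose in the cell, phosphofructokinase sets the pace, and the later enzymes yield ATP and pyruvate, which lactate dehydrogenase turns to lactate or mitochondria oxidise. Resting T cells mainly oxidise fuel, and stimulation through the T cell receptor is known to raise glucose uptake and lactate production. Pyruvate dehydrogenase kinases such as Pdk1 block the entry of pyruvate into the mitochondrial cycle by phosphorylating pyruvate dehydrogenase.

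The libraries held 27600959 to 31810799 counts, and mitochondrial transcripts made up 1.54% to 2.54% of the counts in ANT and 1.56% to 2.04% in SAS. Levels are in CPM, counts scaled to TMM-adjusted library sizes, unless they are given per kb of exon. Cd4 (mean 936 CPM in ANT, 907 CPM in SAS) and Cd3e (515 CPM, 507 CPM) did not pass the test between the clones. Of 12 T cell identity genes, 8 did not pass, Cd28 and Zap70 were higher in SAS (log2 fold changes 0.74 and 0.86), and Trac and Trbc1 were higher in ANT (−0.65 and −0.32). In all 33.3% of them were called, against 37.4% of all genes tested. SAS replicate 2 stood apart: 383 genes had at least 10 counts there and at most 2 in every other library, against 1 to 9 such genes in each of the other libraries. Of 12 neuron and glia genes listed after this was seen, all 12 were detected in SAS replicate 2, with a summed level of 463 CPM against 210 to 307 CPM elsewhere (10 or 11 detected). Most of that sum is Mbp, which was at 198 to 295 CPM in every library, whereas Snap25, a synaptic gene, was at 29.6 CPM in SAS replicate 2 and at 0.184 to 1.90 CPM in the others. The ANT libraries also formed pairs across the whole table: the chi-square per degree of freedom between libraries was 10.6 for replicates 1 and 3, 21.95 for 4 and 5, and 102 to 139 across these pairs. Mitochondrial transcripts (2.54% and 2.44% against 1.62% and 1.54%) and the heat shock gene Hspa1b (274 and 232 CPM against 4.22 and 33.4 CPM) differed between the same pairs. SAS libraries were uneven too. Between them the chi-square per degree of freedom ran from 25.4 (replicates 1 and 6) to 95.1 (1 and 2), with 59.0 for 1 and 3. Of 9 tested handling stress genes, 3 were higher in ANT (Jun, Junb and Dnajb1, 33.3%, against 17.7% of all genes tested) and 0 in SAS. Cell cycle genes moved with the clone: 13 of 14 were higher in SAS (92.9%, against 19.8% of all genes tested). Their summed level ran from 378 to 436 CPM over the ANT libraries and from 502 to 619 CPM over the SAS libraries. CD8 and NK genes were split: of 7 tested, 4 were higher in ANT (57.1%, against 17.7% of all genes tested) and 2 higher in SAS (28.6%, against 19.8%). Their summed levels were 67.8 to 114 CPM over ANT and 28.8 to 52.4 CPM over SAS, and Ncr1, a defining NK gene, was at 0. For 10 B cell and plasma cell genes, summed levels were 49.6 to 59.4 CPM over ANT and 70.4 to 79.3 CPM over SAS, without overlap. Of 5 tested, 1 was higher in SAS (20%, against 19.8% of all genes tested) and 0 in ANT. For 10 erythroid and platelet genes they were 0.897 to 13.1 and 1.35 to 5.92 CPM, and 0 of 3 tested were called. Summed levels of 12 myeloid and dendritic cell genes were 23.2 to 37.1 CPM over ANT, against 25.7 to 38.4 CPM over SAS. Most of that sum is Cst3 (means 28.1 and 24.9 CPM). Of the 4 tested genes, 2 were higher in SAS (50%, against 19.8% of all genes tested), Itgam (0.365 and 1.42 CPM) and Cybb (0.166 and 1.53 CPM). Cybb, at that level in ANT, passed the low-count filter through its SAS libraries, so its call is a description. The part of these markers in the results was not tested. In such bulk samples, fewer cells with a transcript and less transcript per cell cannot be told apart.

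The bases just before the start site are shown for 4 members that differed between the clones and for Ldha, which did not pass the test, because hypoxia-inducible factor and Myc, both known regulators of glycolysis, bind short core sequences near many glycolytic genes. Each line gives the 250 bases before the RefSeq start nearest the annotated gene start (RefSeq, GRCm38.p6), 5′ to 3′ on the gene's strand. These windows are chr6:82774455-82774704 on the minus strand for Hk2, and, on the plus strand, chrX:106186850-106187099 for Pgk1, chr19:41911621-41911870 for Pgam1, chr7:46845554-46845803 for Ldha (4329 bases inside the annotated gene start) and chr2:71872974-71873223 for Pdk1. Capitals mark matches, on either strand, to ACGTG or GCGTG, the core bound by hypoxia-inducible factor, and the E-box CACGTG overlaps the first of these.
Hk2: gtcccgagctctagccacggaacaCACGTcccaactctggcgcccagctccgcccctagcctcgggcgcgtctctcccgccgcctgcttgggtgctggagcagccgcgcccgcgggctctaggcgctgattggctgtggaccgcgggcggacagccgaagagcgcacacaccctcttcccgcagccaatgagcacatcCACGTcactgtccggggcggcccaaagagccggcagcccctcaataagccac
Pgk1: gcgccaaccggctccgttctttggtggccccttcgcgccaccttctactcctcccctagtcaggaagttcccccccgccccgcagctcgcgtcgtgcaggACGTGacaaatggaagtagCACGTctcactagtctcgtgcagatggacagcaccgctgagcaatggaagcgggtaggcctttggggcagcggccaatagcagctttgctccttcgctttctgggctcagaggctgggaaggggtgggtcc
Pgam1: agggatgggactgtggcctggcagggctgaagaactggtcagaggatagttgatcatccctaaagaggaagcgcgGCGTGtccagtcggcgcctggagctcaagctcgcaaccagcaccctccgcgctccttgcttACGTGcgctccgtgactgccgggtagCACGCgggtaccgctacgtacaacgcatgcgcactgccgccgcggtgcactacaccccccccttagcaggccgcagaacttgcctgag
Ldha: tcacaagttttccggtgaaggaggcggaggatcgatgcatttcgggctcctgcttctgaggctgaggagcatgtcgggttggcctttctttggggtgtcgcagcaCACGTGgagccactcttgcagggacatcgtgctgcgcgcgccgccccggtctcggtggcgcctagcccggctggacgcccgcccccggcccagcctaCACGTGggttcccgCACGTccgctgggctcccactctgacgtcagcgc
Pdk1: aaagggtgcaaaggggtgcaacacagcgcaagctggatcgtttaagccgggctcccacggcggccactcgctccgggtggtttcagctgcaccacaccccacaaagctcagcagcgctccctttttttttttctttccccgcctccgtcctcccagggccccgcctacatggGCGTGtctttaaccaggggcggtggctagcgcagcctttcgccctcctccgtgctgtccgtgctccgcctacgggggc
Counted once per core, Ldha and Pgam1 had 3 matches each, Hk2 and Pgk1 had 2 each and Pdk1 had 1. A match stood in the nearest window of 8 of the 10 members, the exceptions being Hk1 and Aldoa. Over every RefSeq start, of which a gene can have several, a match stood in 13 of 16 member windows and in 38.6% of 32851 windows of all genes. CACGTG stood in the nearest window of Ldha alone among the 10 members, in 2 of the 16 member windows, and in 6.02% of all windows. The nearest windows of the members were 49.6% to 69.6% G and C, and the part of base composition in these counts was not tested.

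Of the 10 members, 5 were higher in SAS (Hk2, Pfkp, Pfkfb3, Pgk1 and Pgam1), 1 was higher in ANT (Pdk1) and 4 did not pass the test (Hk1, Pfkl, Aldoa and Ldha). Among all 12619 genes tested with edgeR's quasi-likelihood test at a Benjamini-Hochberg adjusted p under 0.05, 19.8% were called higher in SAS, 17.7% higher in ANT and 37.4% in either direction. All 10 members passed the low-count filter, Hk2 through its SAS libraries alone, so that Hk2 had to differ once it was tested and its call is a description. Without Hk2, 4 members were higher in SAS. With DESeq2, which called 41% of all genes, Aldoa was also called. Against a fold change of 1.5, which called 9.55% of all genes towards SAS and 5% towards ANT, 3 members were higher in SAS (Hk2, Pfkfb3 and Pgam1) and 1 higher in ANT (Pdk1). Hk2 is again a description here, which leaves Pfkfb3 and Pgam1 towards SAS. The median log2 fold change (SAS minus ANT throughout) of the members was 0.40, against −0.003 over all genes tested. Hk2 is counted in that median, and without Hk2 the middle member is Ldha, at 0.17. The libraries of the clones did not overlap for the 6 members called with edgeR, where 38.1% of all genes did not overlap. Hk2 is among these 6, also as a description.

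**Figure D1:**
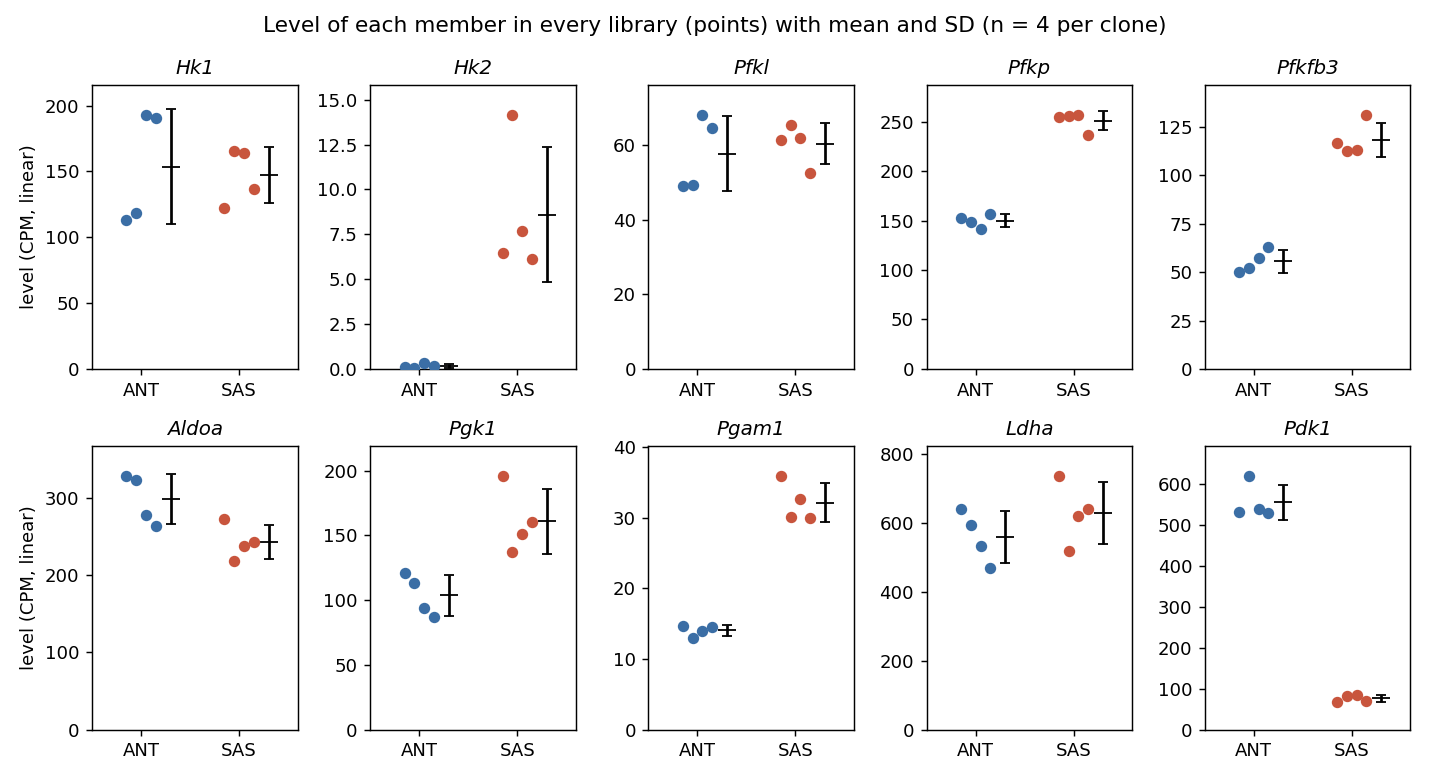
The level of each member in CPM (linear vertical axes from 0) is plotted for the 4 ANT and the 4 SAS libraries as points, with the mean and SD beside them. Pdk1 lies between 530.1 and 620.3 CPM in ANT, far above its 67.4 to 84.3 CPM in SAS, while Hk1 and Ldha overlapped between the clones.

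Hexokinases catalyse the first step. Hk1, the widely expressed isozyme (chromosome 10, 62268855 to 62379908, minus strand, mm10), measured 113, 118, 193 and 191 CPM in the ANT libraries, in the order of replicates 1, 3, 4 and 5. The SAS libraries, in the order of replicates 1, 2, 3 and 6, measured 122, 166, 164 and 136 CPM. The ANT libraries thus lay on both sides of the SAS libraries, and the log2 fold change of −0.06 (95% interval −0.50 to 0.37, edgeR adjusted p 0.825) did not pass the test. It was −0.39 (adjusted p 0.0417) without ANT replicates 1 and 3 and 0.32 (adjusted p 0.0743) without ANT replicates 4 and 5. Hk2, the isozyme induced by growth signals and hypoxia (chromosome 6, 82725025 to 82774454, minus strand), was nearly silent in ANT, with 3, 1, 9 and 4 counts or 0.104, 0.0368, 0.324 and 0.138 CPM. In SAS it was at 6.46, 14.1, 7.70 and 6.14 CPM, and every SAS library lay above every ANT library. Its log2 fold change was 5.80 (SE 0.49), given with no test because of the filter. SAS replicate 2, with the highest Hk2 level, is also the library with the highest summed level of neural genes. Without it the log2 fold change was 5.45, whereas it was 6.44 without ANT replicate 4.

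Phosphofructokinase commits the sugar to glycolysis. Pfkl, the liver-type subunit (chromosome 10, 77986947 to 78010083, minus strand), was at 49.1, 49.3, 68.1 and 64.6 CPM in ANT and at 61.5, 65.5, 62.1 and 52.7 CPM in SAS. The clones overlapped, with the ANT pair of replicates 4 and 5 above replicates 1 and 3, and the log2 fold change was 0.06 (95% interval −0.23 to 0.36, edgeR adjusted p 0.738). Pfkp, the platelet-type subunit (chromosome 13, 6579768 to 6648777, minus strand), was at 153, 149, 141 and 157 CPM in ANT. In SAS, Pfkp was at 255, 255, 256 and 236 CPM, above all ANT libraries, with a log2 fold change of 0.74 (SE 0.08, edgeR adjusted p 7.78e-05). Against a fold change of 1.5 its adjusted p was 0.077. Pfkp shares 748 bases of exon (5.58% of its exon length) with Pitrm1 on the opposite strand. Although the library kit is stranded, the strand setting of the counting is not given in the sources used here, so the Pfkp counts are uncertain to that extent, and the values of Pitrm1 itself were 70.6 ± 6.52 (ANT) and 78.2 ± 9.42 CPM (SAS; SD, n = 4, edgeR adjusted p 0.353).

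Pfkfb3 makes fructose 2,6-bisphosphate, the activator of phosphofructokinase. The gene (chromosome 2, 11471433 to 11554077, minus strand) was at 49.9, 52.2, 57.4 and 63.1 CPM in ANT and at 117, 112, 113 and 131 CPM in SAS. All SAS libraries lay above all ANT libraries, and the log2 fold change was 1.09 (SE 0.11, edgeR adjusted p 2.63e-05).

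Aldolase splits the 6-carbon sugar into 3-carbon sugars. Aldoa (chromosome 7, 126795234 to 126800751, minus strand) was at 329, 323, 278 and 264 CPM in ANT and at 273, 218, 239 and 244 CPM in SAS. Only SAS replicate 1 reached into the ANT range. The log2 fold change of −0.30 (95% interval −0.54 to −0.05) missed the threshold after adjustment in edgeR (adjusted p 0.0606). It passed with DESeq2 (adjusted p 0.0300) and in edgeR without ANT replicate 5 (0.0355), without SAS replicate 1 (0.0461) and without ANT replicates 4 and 5 (0.00863).

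Phosphoglycerate kinase forms ATP in the pathway, and phosphoglycerate mutase follows it. Pgk1 (chromosome X, 106187100 to 106203699, plus strand) was at 121, 113, 93.9 and 87.1 CPM in ANT and at 196, 137, 151 and 160.1 CPM in SAS. The clones did not overlap, and the log2 fold change was 0.63 (SE 0.14, edgeR adjusted p 0.00583). Against a fold change of 1.5 the adjusted p was 0.597. Pgam1 (chromosome 19, 41911923 to 41918660, plus strand) was at 14.7, 12.9, 14.0 and 14.6 CPM in ANT and at 35.9, 30.1, 32.6 and 30.0 CPM in SAS. Each SAS library was above every ANT library, with a log2 fold change of 1.19 (SE 0.11, edgeR adjusted p 1.62e-05).

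Lactate dehydrogenase converts pyruvate to lactate. Ldha (chromosome 7, 46841475 to 46855627, plus strand) was at 639, 593, 533 and 468 CPM in ANT and at 735, 517, 618 and 639 CPM in SAS. The ranges overlapped over most of their width, and the log2 fold change was 0.17 (95% interval −0.14 to 0.47, edgeR adjusted p 0.370).

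Pdk1, which inactivates pyruvate dehydrogenase (chromosome 2, 71873224 to 71903858, plus strand), was at 533, 620.3, 541 and 530.1 CPM in ANT and at 67.4, 83.1, 84.3 and 71.0 CPM in SAS. The lowest ANT library was far above the highest SAS library. Its level was 7.27-fold higher in ANT (log2 fold change −2.86, SE 0.12, edgeR adjusted p 7.64e-08). By mean level Pdk1 ranked 264 of 12619 tested genes in ANT and 3083 in SAS, and by size its difference ranked 61 among the 2228 genes higher in ANT. Over all alternatives tried, its log2 fold change stayed between −2.94 and −2.77 and it was called in each.

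**Figure D2:**
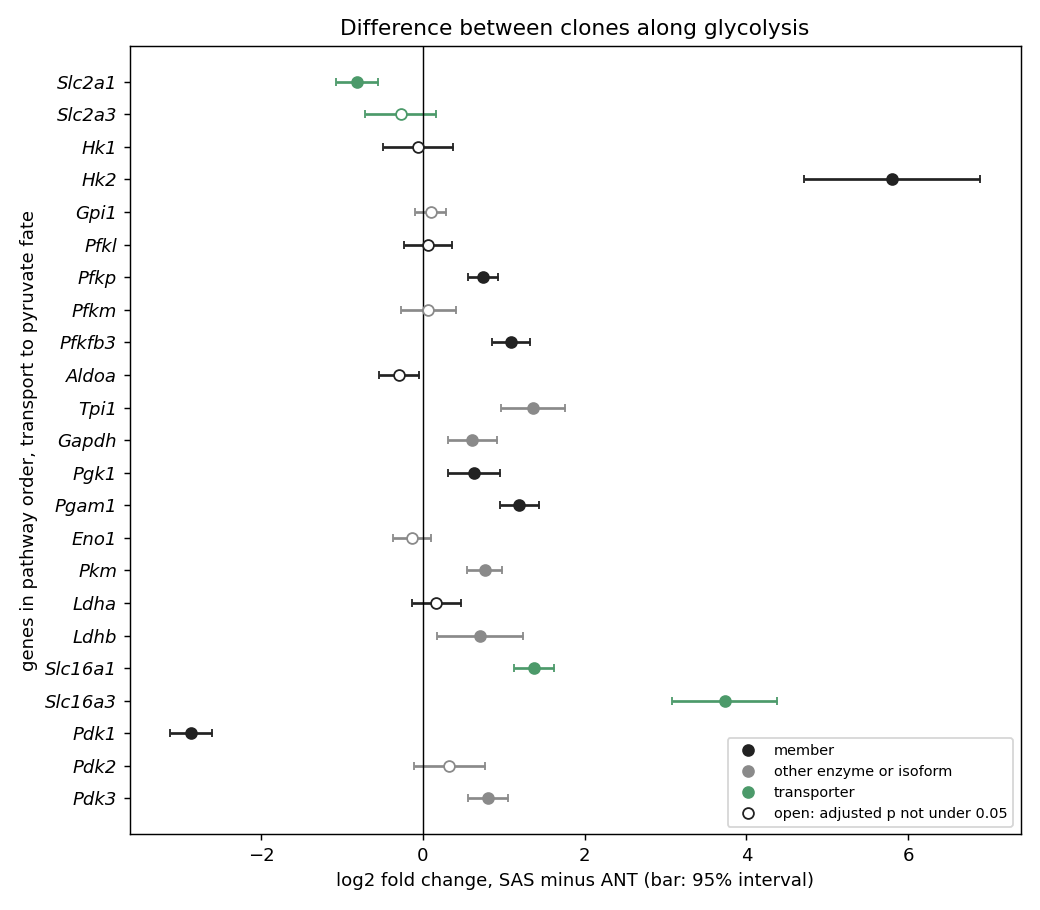
The horizontal axis gives the log2 fold change (SAS minus ANT) with its 95% interval from edgeR for members (black), other enzymes or isoforms (grey) and transporters (green), listed from glucose transport to the fate of pyruvate; open points did not pass the adjusted threshold. Hk2 at 5.80 and Pdk1 at −2.86 lie farthest from 0 among the members.

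Several members have near-identical copies in the genome, which bears on their absolute counts. Transcripts of other genes with at least 90% identity over at least 200 bases were found for Ldha (21, all annotated pseudogenes), Aldoa (7), Pgk1 (4) and Pgam1 (3), and for none of the other members. Counts assigned to those copies amounted to at most 0.704% of the member's own counts in any library. How reads that fit both were counted is not given in the sources used here, so the levels of these 4 genes are uncertain, and reads lost to such copies were not measured.

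To set genes beside each other, levels were divided by the length of all annotated exons of a gene together. The transcripts present can be shorter than that, so the order between genes depends on this choice. Per kb of exon, Ldha was the most abundant member in both clones, at 169 ± 22.4 CPM per kb in ANT and 189.5 ± 26.9 in SAS (SD, n = 4), followed by Aldoa at 103 ± 11.1 and 83.6 ± 7.69. In ANT, Pdk1 came next at 71.5 ± 5.55, above Pgk1 (46.3 ± 7.12), Hk1 (18.0 ± 5.13), Pfkp (11.2 ± 0.499), Pfkl (8.66 ± 1.49), Pfkfb3 (7.36 ± 0.774), Pgam1 (7.09 ± 0.405) and Hk2 (0.0252 ± 0.0206). Among neighbours in this ANT order, the library ranges overlapped for Pfkl with Pfkfb3 and for Pfkfb3 with Pgam1. In SAS the order after Aldoa was Pgk1 (71.8 ± 11.1), Pfkp (18.7 ± 0.714), Hk1 (17.2 ± 2.48), Pgam1 (16.2 ± 1.41), Pfkfb3 (15.6 ± 1.15), Pdk1 (9.83 ± 1.10), Pfkl (9.05 ± 0.818) and Hk2 (1.44 ± 0.627). Neighbours with overlapping ranges in SAS were Aldoa with Pgk1, the run from Pfkp to Pfkfb3, and Pdk1 with Pfkl. Pdk1 thus went from position 3 in ANT to position 8 in SAS.

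Isozyme shares compare genes within a library and do not depend on the scaling of libraries. Pdk1 made up 88.1%, 89.1%, 88.1% and 88.8% of the counts per kb of Pdk1 to Pdk4 in ANT, and 36.2%, 40.1%, 44.5% and 38.9% in SAS. The summed level of the family was 80.7 ± 5.95 CPM per kb in ANT and 24.6 ± 1.39 in SAS (SD, n = 4). Pdk3, another kinase of the family, was higher in SAS, at 29.2 ± 2.09 CPM against 16.8 ± 1.51 CPM (log2 fold change 0.80, SE 0.11, edgeR adjusted p 0.000298). Pdk3 was above Pdk1 per kb in 3 of the 4 SAS libraries, and Pdk1 led in SAS replicate 3 (10.8 against 10.6 CPM per kb). That order rests on the division by exon length (7.779 kb for Pdk1, 2.561 kb for Pdk3). In CPM, Pdk1 (67.4 to 84.3) was above Pdk3 (27.1 to 32.0) in every SAS library. The Pdk1 share differed by −48.6 percentage points (SAS minus ANT) per kb, and by −30.0 without division by length.

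**Figure D3:**
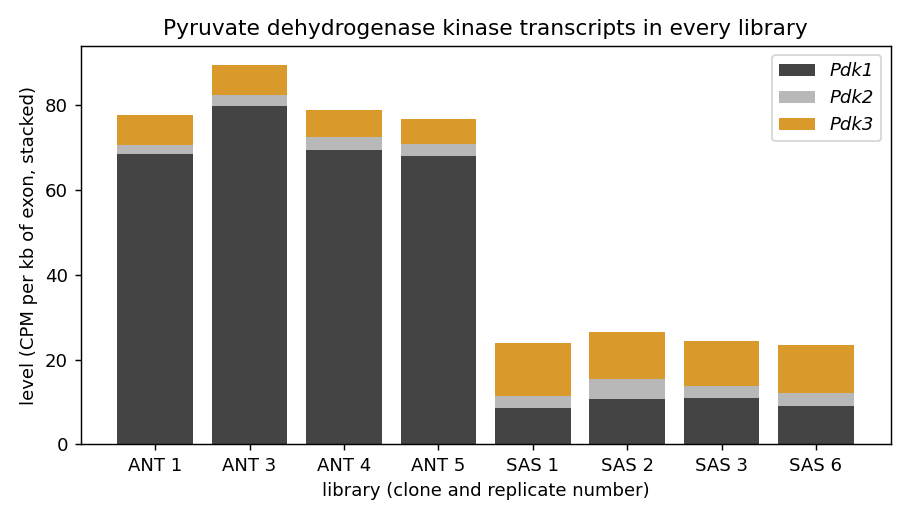
Stacked bars give the level in CPM per kb of exon (linear axis from 0) of Pdk1, Pdk2 and Pdk3 in each of the 8 libraries; Pdk4 is left out, with 3 counts in all. The Pdk1 bars stand at 68.1 to 79.7 in ANT and 8.66 to 10.8 in SAS.

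Hk2 made up 0.127%, 0.0427%, 0.237% and 0.102% of the hexokinases Hk1, Hk2 and Hk3 in ANT and 6.92%, 10.7%, 6.22% and 6.01% in SAS, so that Hk1 was the main isozyme in both clones. The summed hexokinase level was 18.4 ± 5.07 CPM per kb in ANT and 18.9 ± 3.0 in SAS (SD, n = 4). Pfkp held 38.5% to 43.4% of phosphofructokinase in ANT and 49.3% to 55.1% in SAS. Pfkfb3 held 48.1% to 56.8% of its family in ANT and 71.6% to 76.2% in SAS. These 4 shares did not overlap between the clones. Those of Pdk1, Pfkp and Pfkfb3 each had an exact permutation p of 0.0286 (two-sided), the smallest that 4 against 4 can give. Adjusted over the 6 shares compared, Hk2 among them, it was 0.0429. Because the Hk2 share entered this adjustment, the adjusted value is smaller than it would be without Hk2. The Hk2 share is given with no test, because Hk2 passed the low-count filter through its SAS libraries alone. Ldha held 95.6% ± 0.900 of lactate dehydrogenase in ANT and 93.8% ± 1.74 in SAS (SD, n = 4, exact permutation p 0.143, adjusted 0.171). Aldoa held 99.5% ± 0.122 of aldolase in ANT and 98.8% ± 1.64 in SAS (SD, n = 4, exact permutation p 0.83, also after adjustment). The low SAS value for aldolase came from SAS replicate 2 (96.3%), where Aldoc, an isozyme abundant in brain, reached 9.15 CPM, the remaining SAS libraries having 0.731 to 1.25 CPM.

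**Figure D4:**
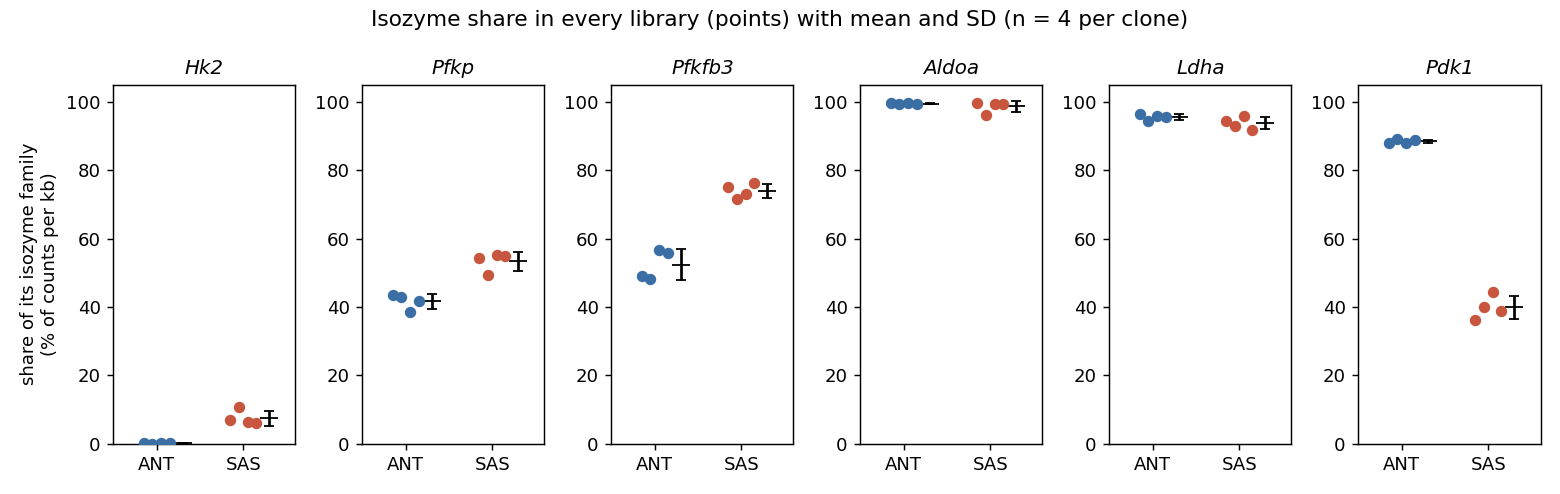
Points give, for each library, 1 isozyme as a percent of the counts per kb of its family (vertical axes in percent from 0), with mean and SD beside them for the 4 ANT and the 4 SAS libraries. The mean Pdk1 share is 88.5% in ANT and 39.9% in SAS, and the mean Pfkfb3 share 52.4% and 74.0%.

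The spread within ANT differed among members. Hk1 averaged 116 CPM in replicates 1 and 3 and 192 CPM in replicates 4 and 5 of ANT, and Pfkl averaged 49.2 and 66.3 CPM. The opposite order was seen for Pgk1 (117 and 90.5 CPM), Ldha (616 and 501 CPM) and Aldoa (326 and 271 CPM), while Pfkp (151 and 149 CPM) and Pgam1 (13.8 and 14.3 CPM) were close. The coefficient of variation over the 4 ANT libraries was 28.5% for Hk1 and 4.47% for Pfkp. In SAS it ran from 3.82% for Pfkp to 15.5% for Pgk1 among members other than Hk2 (43.5%).

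Other glycolytic enzymes were called in 1 direction. Of 21 such genes 12 were tested, of which SAS had the higher level for 6 (50%, against 19.8% of all genes), ANT for 0, and 6 did not pass, with a median log2 fold change of 0.66 against −0.003 over all genes. Pkm, the pyruvate kinase of the final ATP-forming step, ranged over 521 to 573 CPM for ANT, below the 882 to 1018 CPM for SAS (log2 fold change 0.77, edgeR adjusted p 0.000162). Gapdh, which stands just before Pgk1, ranged over 345 to 478 CPM for ANT, below the 549 to 734 CPM for SAS (log2 fold change 0.61, edgeR adjusted p 0.00574). Tpi1, which interconverts the 3-carbon sugars, had a log2 fold change of 1.36 (edgeR adjusted p 0.000202), and Eno3, an enolase, of 1.41 (1.73e-05). Eno2, the enolase of neurons, was at 4.56 to 5.01 CPM in SAS replicates 1, 3 and 6 and at 15.9 CPM in SAS replicate 2. Its log2 fold change was 2.55 (edgeR adjusted p 0.00100), and 1.89 without that library (adjusted p 7.07e-05). Ldhb (log2 fold change 0.71, edgeR adjusted p 0.0397) overlapped between the clones and lost its call without any of 6 libraries (ANT replicates 1, 4 or 5, SAS replicates 1, 2 or 6; adjusted p from 0.0598 to 0.122). Gpi1 and Eno1, abundant enzymes of the upper and lower pathway, had log2 fold changes of 0.10 (adjusted p 0.407) and −0.13 (0.345). Gapdh, Pkm, Tpi1 and Eno1 are also known to have processed pseudogenes, so their levels are uncertain.

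Transport genes were called about as often as all genes: 3 of 7 tested passed (42.9%, against 37.4% of all genes) and 4 did not. Slc2a1, the glucose transporter GLUT1, was at 43.3, 39.5, 35.2 and 37.3 CPM in ANT and at 21.7, 24.3, 23.5 and 18.9 CPM in SAS. It was lower in every SAS library, with a log2 fold change of −0.81 (SE 0.12, edgeR adjusted p 0.000345). For Slc2a3, the glucose transporter GLUT3, the log2 fold change of −0.28 missed the threshold (edgeR adjusted p 0.308), but it was called without SAS replicate 2, the highest SAS library (−0.50, adjusted p 0.0325). The lactate transporters Slc16a1 and Slc16a3, also called MCT1 and MCT4, were higher in SAS, at 57.7 ± 4.62 against 22.3 ± 2.22 CPM and at 8.86 ± 1.05 against 0.663 ± 0.301 CPM (SD, n = 4). Their log2 fold changes were 1.37 and 3.73 (edgeR adjusted p 6.60e-06 and 6.08e-06).

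Most genes around pyruvate dehydrogenase, the target of Pdk1, were not called. Of 10 genes for the complex, its phosphatases and the mitochondrial pyruvate carrier, 0 were higher in SAS by edgeR and 2 higher in ANT (20% in all, against 37.4% of all genes). These were Pdp2, a phosphatase that reverses the action of the kinases (log2 fold change −0.49, edgeR adjusted p 0.00274), and Mpc1, a subunit of the carrier (−0.59, adjusted p 0.00505). Without ANT replicates 4 and 5, 5 were called higher in ANT and 1 in SAS, in a fit that called 5913 genes in all, against 4725 with all libraries. Of 6 tested genes for other Pfkfb and Pdk isoforms and Tigar, Pdk3 was the 1 that passed.

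Regulators of the pathway were called about as often as all genes, 6 of 26 tested towards SAS (23.1%, against 19.8% of all genes) and 4 towards ANT (15.4%, against 17.7%). Txnip, which limits glucose uptake, was at 2378, 2240, 2411 and 1494 CPM in ANT and at 397, 345, 421 and 278 CPM in SAS, with no overlap (log2 fold change −2.56, SE 0.19, edgeR adjusted p 4.38e-06). Hif1a, the oxygen-regulated factor, was higher in SAS, at 206 ± 25.0 against 127 ± 7.37 CPM (log2 fold change 0.70, edgeR adjusted p 0.000574), and Epas1, its relative, was higher in ANT (−3.63, adjusted p 0.000122, and −4.23 without SAS replicate 2). Prkaa1, the catalytic subunit of the energy sensor AMPK, was higher in ANT (−1.15, edgeR adjusted p 1.82e-05), and Rheb and Akt2, upstream of mTOR, were higher in SAS (0.41 and 0.51, adjusted p 0.00803 and 0.00926). Myc was at 33.6, 29.3, 77.0 and 73.8 CPM in ANT and at 115, 82.6, 115 and 123 CPM in SAS. The ANT pairs stood apart, and its log2 fold change of 1.03 (edgeR adjusted p 0.0229) was 1.77 without ANT replicates 4 and 5 and lost its call without ANT replicate 1 (adjusted p 0.0517) or SAS replicates 3 or 6 (0.0558 and 0.0585).

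Of 18 tested genes known to respond to hypoxia outside glycolysis, 5 were called towards SAS (27.8%, against 19.8% of all genes) and 3 towards ANT (16.7%, against 17.7%). Ndrg1, Fam162a and Mif had log2 fold changes of 1.53, 0.86 and 1.08 (edgeR adjusted p 9.00e-06, 0.000673 and 0.000729). Ak4, a mitochondrial adenylate kinase, had 2.39 ± 0.710 CPM (SAS) and 0.415 ± 0.0952 CPM (ANT; SD, n = 4), and Bhlhe40, a transcriptional repressor, at 28.3 ± 12.7 and 1.56 ± 0.949 CPM (log2 fold change 4.17, and 5.11 without ANT replicates 4 and 5). Mxi1, which opposes Myc, was higher in ANT (−0.72, edgeR adjusted p 0.00251).

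**Figure D5:**
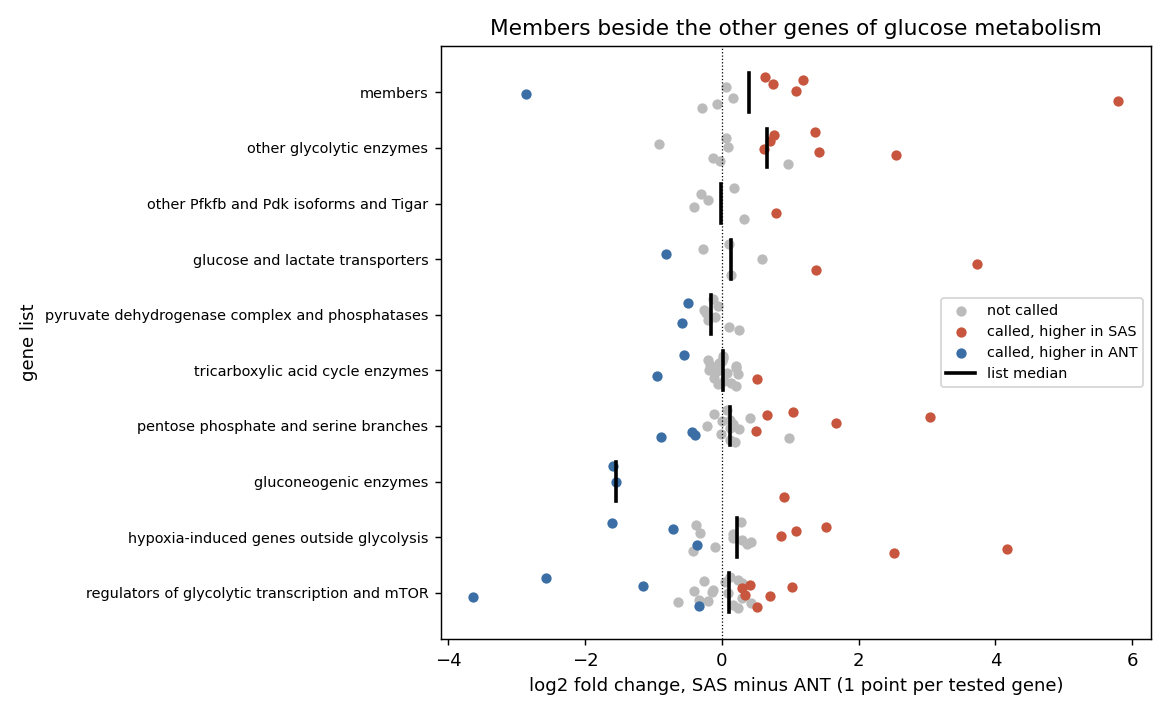
Each point is the log2 fold change (SAS minus ANT) of 1 tested gene, in rows by gene list, colored by its edgeR call, with a bar at the list median. The medians of the members (0.40, Hk2 included) and of the other glycolytic enzymes (0.66) lie to the right of 0. That of the tricarboxylic acid cycle enzymes (0.01) lies near 0. Without Hk2 the middle member is Ldha, at 0.17.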

How the data were processed

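The authors deposited raw counts per gene for 8 libraries of CD4+ T cells. Reads were aligned with STAR and counted with featureCounts on mm10, per the submitters' processing notes. Versions, annotation release, strand setting and the handling of multi-mapped reads are not given in the sources used here. Of the 39056 Ensembl IDs, 38872 were found, ignoring versions, in GENCODE M21 (GRCm38) and 184 were not.

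The whole table was fitted with edgeR 4.0.16 (R 4.3.3; default low-count filter by group, TMM scaling, robust quasi-likelihood test, no covariate), and p-values were adjusted by Benjamini-Hochberg over 12619 genes, with calls under 0.05. The SE is the absolute log2 fold change over the square root of F. Shares used exact two-sided permutation tests. Alternatives were DESeq2 1.42.0, limma-voom (limma 3.58.1), other scalings and filters, a replicate block and left-out libraries. On simulated counts for SAS against ANT (200 genes changed among 12446 tested), edgeR recovered 22% of genes changed 1.5-fold, 58% at 2-fold and 92% at 4-fold. Of its calls 2.88% were false, against 18.5% of the calls of DESeq2. In the data 37.4% of genes were called, a far larger part than was changed in the simulation. These rates therefore need not hold for the data. Near copies were sought with blastn 2.17.0.

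The members and lists were chosen with earlier results of these data known. Named genes are all members, 12 fixed genes, and of each other list every called gene or the 6 with the smallest p. The neuron and glia list was added after SAS replicate 2 was seen to stand apart.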

Additional observations from a re-analysis of the deposited data

Results flagged for a closer look

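Of 32 groups of 4 libraries (10 members and 6 shares in each clone), 4 held a library far from the other three, where about 1 in 20 groups is expected to by chance. Pfkp in SAS was at 236 CPM in replicate 6 against 255 to 256 CPM in the others. Pdk1 in ANT was at 620.3 CPM in replicate 3 against 530.1 to 541 CPM. The Pfkp share of phosphofructokinase was 49.3% in SAS replicate 2 against 54.4% to 55.1% in the other SAS libraries, and Pfkm, the muscle-type subunit, was at 32.8 CPM there against 21.1 to 22.4 CPM. The Aldoa share was 96.3% in SAS replicate 2 against 99.5% to 99.8% in the other SAS libraries. SAS replicate 2 is the library with 383 genes of its own and Snap25 at 29.6 CPM, and the part of those transcripts in both shares was not tested.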

How the results depend on the processing

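The calls of Pfkfb3, Pgam1 and Pdk1 held under all 19 alternatives, and those of Pfkp and Pgk1 under all but the test against a 1.5-fold change, which left 1836 genes called (1205 higher in SAS, 631 higher in ANT) and 3 members higher in SAS. Hk2 is counted among these members as a description. The count of members higher in ANT was 1, and 2 with DESeq2, with a replicate block and without ANT replicates 4 and 5, through Aldoa, and without ANT replicates 1 and 3, through Hk1; leaving out single libraries gave 1 to 2. Hk1 turned to 0.034 with library totals only, 0.29 with the replicate block, 0.32 without ANT replicates 4 and 5, and ran from −0.19 to 0.053 without single libraries (above 0 without SAS replicate 1 or ANT replicates 4 or 5). Pfkl ran from −0.010 to 0.14 without single libraries (below 0 without ANT replicates 1 or 3), turned to −0.14 without both, and was called with the replicate block (0.33, adjusted p 0.0410), which then had 6 members higher in SAS. That block takes the clone difference from replicates 1 and 3 alone. It is not a pairing the labels state: deviations of equal numbers correlated at 0.47 (replicate 1) and −0.22 (replicate 3). Those of ANT replicate 3 and SAS replicate 1, with unequal numbers, correlated at 0.43. Without scaling factors the median of all genes moved from −0.003 to 0.09, and calls higher in SAS went from 52.8% to 64.8%. The fitted Hk2 difference ran from 5.19 to 6.81, with 17 counts in ANT as its limit.

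In alternatives added after seeing the data, the other lists moved as follows. The fit without ANT replicates 4 and 5 called 5913 genes of the whole table (3089 higher in SAS, 2824 in ANT). The fit of all libraries called 4725 (2497 and 2228). In the former, other Pfkfb and Pdk isoforms had 2 genes higher in ANT, and the pyruvate dehydrogenase list 1 higher in SAS and 5 in ANT. Regulators had 12 in SAS, hypoxia genes 5 in ANT, and gluconeogenic enzymes 1 in ANT. The tricarboxylic acid cycle had 0 in SAS and 7 in ANT. Without ANT replicates 1 and 3 (4779 genes called), regulators had 7 higher in ANT, and the tricarboxylic acid cycle 4 in SAS and 1 in ANT. Without SAS replicate 2 (4291 genes called), transporters had 2 higher in ANT and the tricarboxylic acid cycle 1. DESeq2 (5173 genes called) gave 1 other Pfkfb or Pdk isoform higher in ANT. Library totals only (4730 genes called) gave the tricarboxylic acid cycle 2 in SAS and 1 in ANT. The cause was not tested.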

Other observations

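Of 21 tested genes of the pentose phosphate, serine and related branches, edgeR called 5 towards SAS and 3 towards ANT, 38.1% in all against 37.4% of all genes. Shmt1, which transfers a carbon from serine to folate in the cytosol, had 37.8 ± 6.84 CPM (SAS) and 4.57 ± 0.335 CPM (ANT; SD, n = 4, log2 fold change 3.05, edgeR adjusted p 4.02e-07). Psat1, of serine synthesis, had a log2 fold change of 1.67, and Shmt2, the mitochondrial counterpart of Shmt1, of 0.66. Tkt and Pgd, of the pentose phosphate pathway, had log2 fold changes of 1.04 and 0.50. Gpd1l, a glycerol phosphate dehydrogenase family member, was higher in ANT (−0.89, edgeR adjusted p 2.24e-05).

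All 3 tested gluconeogenic genes were called, against 37.4% of all genes: Pck2 and Pcx were higher in ANT (log2 fold changes −1.54 and −1.59) and G6pc3 higher in SAS (0.90). Pcx lost its call without ANT replicates 4 and 5 (adjusted p 0.0700). Of 20 tricarboxylic acid cycle genes, 1 was higher in SAS (Fh1, 0.51) and 2 higher in ANT (Idh2, −0.94, and Suclg2, −0.55). That is 15% in all, against 37.4% of all genes. Fh1 lost its call without ANT replicate 4 (adjusted p 0.0533), and Suclg2 without ANT replicates 1 or 3 or SAS replicates 2, 3 or 6 (adjusted p from 0.0867 to 0.100).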
